A study of Mus musculus with 2 samples.

Results

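Immediate early genes are the genes a cell transcribes within minutes of a stimulus, without the need for new protein. The 10 described here were taken by symbol, namely Fos, Fosb, Jun, Junb, Jund, Egr1, Dusp1, Ier2, Atf3 and Nr4a1, and all 10 were found among the 54532 genes of the table. They were read for cell handling and acute signalling in macrophages sorted from the aorta of ApoE-/- mice on the C57BL/6J background, labelled as 6 weeks old in both groups. The PDR (Phlegm-Dampness Retention) group had 4 weeks of high-fat diet. The SKYD (Spleen and Kidney Yang Deficiency) group was given propylthiouracil, which blocks the synthesis of thyroid hormone, by gavage at 10 mg/kg per day for 4 weeks and then 2 weeks of high-fat diet. The aortas were digested with trypsin and ground, and cells positive for F4/80 and CD11b were sorted, with the cells of 5 mice pooled in each group. Each group was therefore 1 library, so no difference below has a replicate check and no p-value is given. The course was also longer in SKYD, and syndrome, drug, diet time and age at sampling cannot be told apart.

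Fos and Jun proteins pair with each other, and with relatives such as Atf3, to form the transcription factor AP-1. Their mRNAs and those of Egr1, Ier2 and Nr4a1 are induced through MAP kinases, the serum response factor and CREB, and are then destroyed quickly. Dusp1 encodes a phosphatase that switches the MAP kinases off again and is also induced by glucocorticoids. Enzymatic digestion of tissue is itself a known inducer of the family, and in macrophages so are bacterial products, cytokines and adhesion.

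The deposited values are FPKM, fragments (read pairs) scaled to gene length and to a total for each library. Whole fragments were recovered from them, with 23086889 on genes for PDR and 25427863 for SKYD. The totals behind the FPKM were 23487992 and 24993633, so ratios of FPKM differ slightly from ratios of the shares of fragments given below. Differences are log2(FPKM + 1) in PDR minus that in SKYD, and were read for genes whose FPKM averaged 1 or more, here called tested, which were 10399 of the table and 9 of the 10 members. The 95% intervals come from exact (Clopper-Pearson) limits on the split of fragments between the libraries and cover counting error only. The members together took 24957 fragments in PDR, 0.108% of the library (95% CI 0.107 to 0.109), and 38536 in SKYD, 0.152% (95% CI 0.150 to 0.153). Without Dusp1 the shares were 0.0820% and 0.0892%. As deposited, most of the gap between the libraries in the summed level was thus carried by a single gene. The sum was not recomputed under other scalings.

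Of the 9 tested members, 1, Dusp1, was more than 2-fold higher in SKYD, where 6.91% of all tested genes were, and 0 were more than 2-fold higher in PDR, where 7.38% of all tested genes were. With centring on the macrophage markers Dusp1 was at -0.65 and did not pass 2-fold, and 8 of the 9 were higher in PDR. By that scaling 2, Atf3 and Nr4a1, passed 2-fold toward PDR, where 24.6% of all tested genes did. The members' median was then 0.65, as was that of all tested genes. As deposited the median difference of the 9 was -0.0012, beside -0.0035 for all tested genes. The other 8 tested members lay within 0.50 of 0 on this log2 scale, as did 63.7% of all tested genes. The members as deposited thus did not move as a block, and their counts past 2-fold were near those of the whole table.

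**Figure D1:**
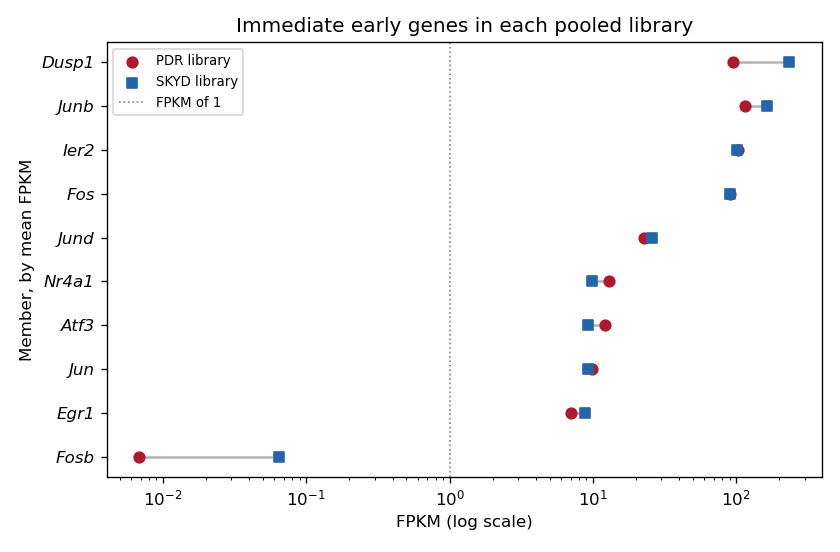
FPKM (log scale) of each of the 10 members in PDR (circles) and SKYD (squares), with a dotted line at an FPKM of 1. Dusp1 has the widest gap among the tested members, 95.1 against 235, while the symbols of Fos and Ier2 overlap, and Fosb lies below the line in both libraries.

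Among the AP-1 subunits, Fos (ENSMUSG00000021250, chromosome 12 from 85473890 to 85477273 of GRCm38) had an FPKM of 90.2 in PDR and 90.3 in SKYD, from 4985 and 5309 fragments. As deposited its level was the same in both libraries within counting error, with a log2 difference of -0.0012 (95% CI -0.06 to 0.05). This became 0.65 with centring on the macrophage markers and 0.22 with protein-coding genes rescaled. Fosb (ENSMUSG00000003545, chromosome 7 from 19302696 to 19310051), a relative of Fos that answers to the same stimuli, had an FPKM of 0.0068 in PDR and 0.064 in SKYD. These came from 1 and 10 fragments, an FPKM ratio of 9.40 for SKYD over PDR with a counting interval of 1.34 to 408. Fosb was thus close to undetected beside an abundant Fos in both libraries, and it was the member below the filter.

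The Jun proteins are the partners that Fos needs to bind DNA. Junb (ENSMUSG00000052837, chromosome 8 from 84974484 to 84978718) had an FPKM of 115 in PDR and 163 in SKYD, from 6197 and 9348 fragments. It was 1.42-fold higher in SKYD by FPKM (95% CI 1.37 to 1.46), with a log2 difference of -0.50 (95% CI -0.55 to -0.45), which turned to 0.15 when differences were centred on the macrophage markers. Junb shares 351 bases at its end with the end of Prdx2, a peroxiredoxin gene on the other strand with 8409 and 8595 fragments, and fragments from that stretch cannot be told apart without strand.

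Jund (ENSMUSG00000071076, chromosome 8 from 70698949 to 70700616), the Jun gene with steady expression in resting cells, had an FPKM of 22.8 in PDR and 25.7 in SKYD. Its log2 difference was -0.17 (95% CI -0.29 to -0.04), which turned to 0.48 with centring on the macrophage markers and to 0.049 with protein-coding genes rescaled. Jun (ENSMUSG00000052684, chromosome 4 from 95049034 to 95052222) had an FPKM of 9.93 in PDR and 9.21 in SKYD, with a log2 difference of 0.10 (95% CI -0.04 to 0.23). As deposited the levels of Jun could not be separated at this depth, and the difference became 0.75 with centring on the macrophage markers and 0.32 with protein-coding genes rescaled. The antisense gene Junos, which overlaps 689 bases of Jun, had 18 and 36 fragments, and the antisense gene Gm11175 within Jund had 0 in both libraries.

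By FPKM the order of the Jun genes was Junb, Jund and Jun in both libraries. Junb made up 77.8% of their summed FPKM in PDR and 82.3% in SKYD, and Jun made up 6.74% and 4.66%. The FPKM of Fos was 9.08 times that of Jun in PDR and 9.81 times in SKYD. Both libraries therefore held the same ranking of AP-1 subunits at the mRNA level, with Junb and Fos well above Jun.

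Atf3 (ENSMUSG00000026628, chromosome 1 from 191170296 to 191218039), a stress-induced bZIP factor that restrains inflammatory genes in macrophages, had an FPKM of 12.1 in PDR and 9.21 in SKYD. These came from 614 and 496 fragments, 1.32-fold higher in PDR by FPKM (95% CI 1.17 to 1.49), with a log2 difference of 0.36 (95% CI 0.21 to 0.52). The small RNA gene Gm24748, which lies within Atf3, had 0 fragments in both libraries. Atf3 and the nuclear receptor Nr4a1 had the highest differences toward PDR among the tested members, and neither passed 2-fold as deposited.

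Nr4a1 (ENSMUSG00000023034, chromosome 15 from 101254269 to 101274795), an orphan nuclear receptor required for patrolling monocytes, had an FPKM of 12.8 in PDR and 9.79 in SKYD, from 1059 and 859 fragments. Its log2 difference was 0.36 (95% CI 0.24 to 0.48). Ier2 (ENSMUSG00000053560, chromosome 8 from 84661331 to 84662852), a nuclear regulator, had an FPKM of 103.5 in PDR and 102 in SKYD, from 3700 and 3872 fragments, with a log2 difference of 0.02 (95% CI -0.04 to 0.09). Egr1 (ENSMUSG00000038418, chromosome 18 from 34859823 to 34864984), a zinc finger factor induced through serum response elements, had an FPKM of 6.98 in PDR and 8.81 in SKYD. Its log2 difference was -0.30 (95% CI -0.42 to -0.17), which turned to 0.35 with centring on the macrophage markers. Ier2 was level within counting error as deposited, at 0.67 with centring on the macrophage markers, and Egr1 was the lowest of the tested members in FPKM in both libraries.

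Dusp1 (ENSMUSG00000024190, chromosome 17 from 26505590 to 26508519) had an FPKM of 95.1 in PDR and 235 in SKYD, from 6027 and 15848 fragments. It was 2.47-fold higher in SKYD by FPKM (95% CI 2.40 to 2.55), and 4.72% of the tested genes had a log2 difference further toward SKYD. Under every scaling tried its log2 difference stayed below 0, from -1.34 to -0.65, and at the last of these, with centring on the macrophage markers, it did not pass 2-fold. In PDR its FPKM was 1.05 times that of Fos and 0.919 times that of Ier2, and in SKYD it was 2.60 and 2.31 times. The phosphatase thus stood slightly above Fos in PDR and above every other member in SKYD.

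The promoters of Dusp1, Junb, Fos and Nr4a1 are shown, a choice made after their values were seen. RefSeq windows on GRCm38.p6, from 250 bases before to 50 after the start, matched 8 of the 10 members, and Egr1 and Ier2 had no entry. The windows are chr17:26508423-26508722 on the minus strand for Dusp1, chr8:84978699-84978998 on the minus strand for Junb, chr12:85473640-85473939 on the plus strand for Fos and chr15:101266596-101266895 on the plus strand for Nr4a1. The RefSeq start is the deposited one for Fos, lies 47 bases from it for Dusp1 and 30 bases from it for Junb, and lies inside the gene, 12577 bases away, for Nr4a1. Capitals mark TGACG, the core of the cAMP response element, and TATAAA, each searched on both strands, so that the core reads CGTCA on the other strand. In Dusp1 the capitals also mark the full palindrome TGACGTCA, which holds a core on each strand.
Dusp1: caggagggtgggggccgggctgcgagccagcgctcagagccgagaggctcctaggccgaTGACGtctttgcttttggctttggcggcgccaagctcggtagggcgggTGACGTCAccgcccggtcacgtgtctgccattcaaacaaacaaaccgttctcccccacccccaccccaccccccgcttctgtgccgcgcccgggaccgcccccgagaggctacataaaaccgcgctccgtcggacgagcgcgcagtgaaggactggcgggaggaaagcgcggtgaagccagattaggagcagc
Junb: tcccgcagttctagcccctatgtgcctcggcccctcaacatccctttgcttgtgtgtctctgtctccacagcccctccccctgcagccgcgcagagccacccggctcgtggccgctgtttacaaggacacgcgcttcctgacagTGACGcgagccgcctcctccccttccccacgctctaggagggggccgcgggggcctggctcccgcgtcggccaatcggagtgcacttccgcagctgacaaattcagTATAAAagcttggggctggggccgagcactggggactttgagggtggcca
Fos: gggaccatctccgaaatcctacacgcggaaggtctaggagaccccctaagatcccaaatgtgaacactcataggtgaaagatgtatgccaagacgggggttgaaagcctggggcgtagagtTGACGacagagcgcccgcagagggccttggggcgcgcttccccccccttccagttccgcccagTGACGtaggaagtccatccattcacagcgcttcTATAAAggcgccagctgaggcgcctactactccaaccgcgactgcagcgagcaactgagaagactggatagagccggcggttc
Nr4a1: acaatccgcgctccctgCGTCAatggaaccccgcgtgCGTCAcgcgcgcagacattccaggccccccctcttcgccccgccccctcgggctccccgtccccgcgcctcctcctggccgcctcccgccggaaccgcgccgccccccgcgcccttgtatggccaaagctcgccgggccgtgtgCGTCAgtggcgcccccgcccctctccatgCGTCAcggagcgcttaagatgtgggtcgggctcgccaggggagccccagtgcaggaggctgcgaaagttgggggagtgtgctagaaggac

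The full palindrome was in 1 of the 8 member windows, that of Dusp1, starting 143 bases before the start, and in 1.79% of the 32851 windows of this length. The core was in 6 of the 8, namely Dusp1, Junb, Fos, Nr4a1, Atf3 and Fosb, and in 20.8% of all windows. The windows of Atf3 and Jund lie 34706 bases downstream and 1210 bases upstream of the deposited start, so a match or its absence there holds for the RefSeq start alone. Dusp1 had 3 copies by start position, counting both strands of the palindrome, Fos had 2, and Nr4a1 had 4, all of them on the other strand. TATAAA was in the windows of Fos, 33 bases before the start, and of Junb, where it begins at the RefSeq start and 30 bases before the deposited one, and in 13.6% of all windows. As deposited, the core was thus present both in members that were higher in SKYD and in members that were level or higher in PDR. These are matches of letters, and binding was not measured.

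**Figure D2:**
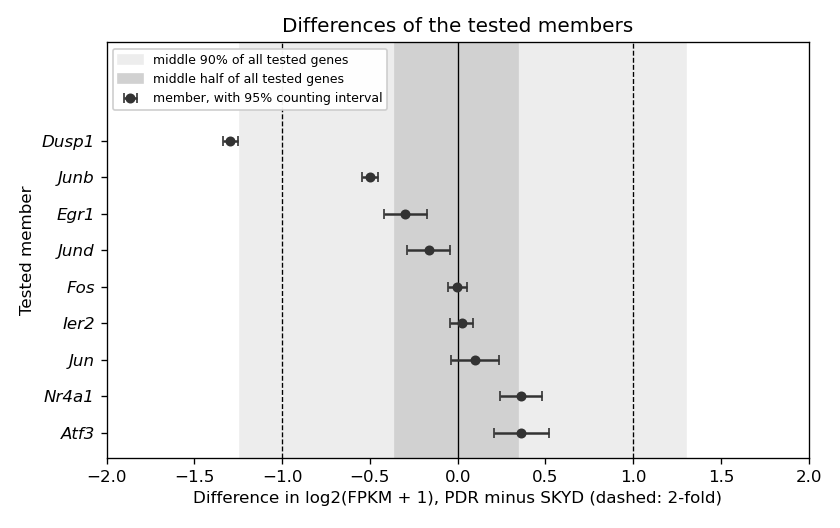
Difference in log2(FPKM + 1), PDR minus SKYD, of the 9 tested members, with 95% counting intervals, dashed lines at 2-fold and shading for the middle part of all 10399 tested genes. Dusp1, at -1.30, lies beyond the 2-fold line and outside the middle 90%, and the other 8 lie between -0.50 and 0.36.

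Of 42 further immediate early genes, 30 were tested, 6 passed 2-fold toward SKYD and 0 toward PDR, where 6.91% and 7.38% of all tested genes did. Their median difference was -0.35, which turned to 0.30 with centring on the macrophage markers, and the counts then became 0 toward SKYD and 4 toward PDR, where 3.13% and 24.6% of all tested genes passed. The most abundant by FPKM were Nfkbia, Cebpb and Klf2. Nfkbia, the inhibitor that holds NF-kB in the cytoplasm, had an FPKM of 230 in PDR and 485 in SKYD, with a log2 difference of -1.07 (95% CI -1.11 to -1.03). Cebpb, a factor of macrophage activation, had an FPKM of 194 and 360.

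Klf2, a factor that quiets monocytes and lymphocytes, had an FPKM of 79.5 in PDR and 193 in SKYD, and its log2 difference of -1.26 (95% CI -1.32 to -1.21) was the furthest toward SKYD in the list. At the other end, Ppp1r15a, which restarts translation after stress, had an FPKM of 15.3 and 7.94, with a log2 difference of 0.86 (95% CI 0.729 to 0.997). The other genes past 2-fold, named after their values were seen, were Ier3, Plk3, Rhob and Klf4.

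Close relatives of the members were mostly near or below the filter, and those given here were chosen after their values were seen. Nr4a2 and Nr4a3 had 0 fragments in PDR and 42 and 15 in SKYD. With PDR set to a floor of 3 fragments they were 13.2-fold and 4.70-fold higher in SKYD, without allowance for counting error in SKYD. Egr2 had 30 fragments in PDR and 140 in SKYD, with a log2 difference of -0.94 (95% CI -1.13 to -0.73), and Egr3 had 10 and 2. Egr4 and Npas4 had 0 in both libraries. Nr4a1 and Egr1 were the abundant members of their families in both libraries.

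The other bZIP genes that can pair with AP-1 subunits numbered 12, of which 9 were tested, 1 passed 2-fold toward PDR and 2 toward SKYD, where 7.38% and 6.91% of all tested genes did. Their median difference was -0.49, which turned to 0.16 with centring on the macrophage markers, and the counts then became 2 and 1, beside 24.6% and 3.13% of all tested genes. Batf and Atf4 led the list by mean FPKM. Batf, which pairs with Jun proteins in lymphocytes and dendritic cells, had an FPKM of 60.7 in PDR and 47.3 in SKYD, and Atf4, the effector of the integrated stress response, had 43.5 and 61.5.

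Batf2 had the difference furthest toward PDR in this list, an FPKM of 8.34 against 1.02 in SKYD and a log2 difference of 2.21 (95% CI 1.99 to 2.42). Jdp2, a repressor that pairs with Jun, had an FPKM of 3.21 in PDR and 16.2 in SKYD, with a log2 difference of -2.03 (95% CI -2.22 to -1.83). Batf2 and Jdp2 are the ends of their list and were taken for the size of their differences, so no comparison with the members is drawn.

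Of 28 kinases and transcription factors upstream, 22 were tested, with a median difference of 0.13, beside -0.0035 for all tested genes. As deposited 0 passed 2-fold either way, where 7.38% of all tested genes did toward PDR and 6.91% toward SKYD. With centring on the macrophage markers the median was 0.78, beside 0.65 for all tested genes, and 5 passed 2-fold toward PDR, where 24.6% of all tested genes did. Mapkapk2, a kinase downstream of p38, had an FPKM of 48.7 in PDR and 34.7 in SKYD, and the ribosomal S6 kinase Rps6ka1 had 22.3 and 16.7. Srf, the serum response factor, had the difference furthest toward PDR at 0.66 (95% CI 0.45 to 0.86), and Crem, a cAMP-responsive factor, the one furthest toward SKYD at -0.86 (95% CI -0.98 to -0.74), 2.01-fold by FPKM.

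Of 13 other feedback inhibitors of MAP kinases, 6 were tested, with a median difference of 0.13. As deposited 0 passed 2-fold, where 7.38% of all tested genes did toward PDR and 6.91% toward SKYD. With centring on the macrophage markers 1 passed toward PDR, where the median was 0.78 and 24.6% of all tested genes passed. Dusp2, the most abundant by FPKM, had 27.7 in PDR and 22.2 in SKYD, Dusp6 had 15.7 and 17.8, and Dusp10 had 7.26 and 7.33. The ends of the list were Dusp7 at 0.49 and Dusp6 at -0.17, the latter at 0.48 with that centring. As deposited, no related phosphatase above the filter passed 2-fold as Dusp1 did, which also held for most tested genes. The difference between Dusp1 and these phosphatases was not tested.

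Dusp1 is also a textbook target of the glucocorticoid receptor, and of 8 further genes that respond to glucocorticoids 7 were tested, 6 passed 2-fold toward SKYD and 0 toward PDR, where 6.91% and 7.38% of all tested genes did. Their median difference was -2.35, and with centring on the macrophage markers it was -1.71 and 4 passed 2-fold toward SKYD, where 3.13% of all tested genes did. Mt1, a metallothionein that also responds to metals, had an FPKM of 68.5 in PDR and 1296 in SKYD, with a log2 difference of -4.22 (95% CI -4.29 to -4.16). Tsc22d3 (GILZ) had an FPKM of 55.9 and 170, with a log2 difference of -1.59 (95% CI -1.63 to -1.54), which became -0.94 and short of 2-fold with that centring. Sgk1, a kinase of salt transport, had an FPKM of 10.7 and 13.5, and its log2 difference of -0.30 (95% CI -0.40 to -0.20) was the smallest of the tested genes of the list, and it turned to 0.35 with that centring. As deposited Dusp1 and the tested genes of this list were higher in the same library, and hormone levels and the part of this list in the result for Dusp1 were not tested.

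Of 16 early inflammatory genes, which the same stimuli induce in macrophages, 14 were tested, 10 were higher in PDR, 7 passed 2-fold toward PDR and 1 toward SKYD, with a median difference of 0.98. Of all tested genes 7.38% and 6.91% passed. With centring on the macrophage markers the list had 9, 0 and 1.63, where all tested genes had 24.6%, 3.13% and a median of 0.65. Ccl2, a chemokine that draws monocytes, had an FPKM of 199 in PDR and 46.0 in SKYD, with a log2 difference of 2.09 (95% CI 1.999 to 2.17), and the related Ccl7 had 145 and 47.1. The cytokine gene Il1b had an FPKM of 89.8 and 71.1.

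Cd83, a surface marker of activated dendritic cells and B cells, had the difference furthest toward PDR in this list, an FPKM of 107 against 22.4 in SKYD and a log2 difference of 2.20 (95% CI 2.12 to 2.28). Socs3, the feedback inhibitor of cytokine receptors, had an FPKM of 14.5 and 32.6, with a log2 difference of -1.12 (95% CI -1.22 to -1.02), which became -0.47 and short of 2-fold with that centring. Among genes chosen after their values were seen, Cxcl3, below the filter, had 0 fragments in PDR and 159 in SKYD. With PDR set to a floor of 3 fragments it was 49.8-fold higher in SKYD, without allowance for counting error in SKYD. Ptgs2, also chosen so and below the filter, had 57 and 2 fragments. Il6 and Il1a had log2 differences of -0.51 (95% CI -0.71 to -0.32) and -0.42 (95% CI -0.67 to -0.18), which turned to 0.14 and 0.22 with that centring.

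**Figure D3:**
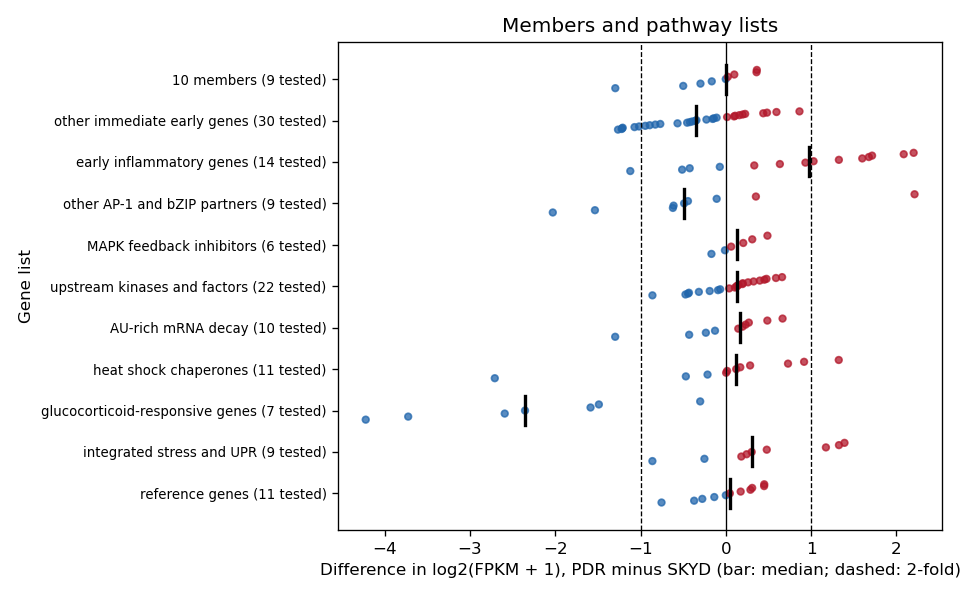
Difference in log2(FPKM + 1), PDR minus SKYD, of each tested gene of the members and of 10 further lists, with a bar at each median and dashed lines at 2-fold. The members' median lies at -0.0012, that of the glucocorticoid-responsive genes at -2.35 and that of the early inflammatory genes at 0.98, and the medians of the other immediate early genes and of the bZIP partners, -0.35 and -0.49, change sign with centring on the macrophage markers.

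Heat shock chaperones are a second reading of handling stress. Of 13 genes, 11 were tested, 1 passed 2-fold toward PDR and 1 toward SKYD, where 7.38% and 6.91% of all tested genes did, with a median difference of 0.12. Hspa8, the constitutive HSP70, had an FPKM of 449 in PDR and 237 in SKYD, with a log2 difference of 0.92 (95% CI 0.90 to 0.94), while Hsp90ab1 had 278 and 275 and Hspe1 had 164 and 134. Hsph1 had the difference furthest toward PDR at 1.32 (95% CI 1.19 to 1.46) and Hspb1, a small heat shock protein, the one furthest toward SKYD at -2.71 (95% CI -2.87 to -2.55). As deposited, 8 of the 11 were higher in PDR and 3 in SKYD, and with centring on the macrophage markers the median was 0.77 and 3 passed 2-fold toward PDR and 1 toward SKYD, where 24.6% and 3.13% of all tested genes did. Below the filter, and chosen after their values were seen, Hspa1a had 60 fragments in PDR and 22 in SKYD, and its near copy Hspa1b had 57 and 22.

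The cells were labelled as macrophages, and all 12 macrophage markers were tested, with 4 more than 2-fold higher in SKYD and 0 in PDR. Of all tested genes 6.91% and 7.38% were. The 4 markers past 2-fold, named after their values were seen, were C1qa, C1qb, C1qc and Cd163. The median difference of the 12 markers was -0.65, over a range from -1.59 (C1qc) to 0.54 (Fcgr1), beside -0.0035 for all tested genes. They took 3.35% of fragments in PDR (95% CI 3.34 to 3.36) and 6.13% in SKYD (95% CI 6.13 to 6.14), with Lyz2, which is also expressed in neutrophils, at 686737 of the 773187 marker fragments in PDR and 1359594 of 1559894 in SKYD. Chosen after their values were seen, Fcgr1 at 0.54 and Csf1r at 0.35 were higher in PDR, and the sort marker Adgre1 (F4/80), at -0.10 as deposited, turned to 0.55 when centred on this list's own median. The other 10, Adgre1 among them, were higher in SKYD as deposited, and the sort marker Itgam (CD11b) was at -0.64, or 0.0063 when so centred. Fewer cells of a type and less RNA per cell cannot be told apart in such libraries. Scaled to these markers, 0 members were more than 2-fold higher in SKYD and 2, Atf3 and Nr4a1, passed 2-fold toward PDR, at 1.01 each. By that scaling 3.13% of all tested genes passed 2-fold toward SKYD and 24.6% toward PDR, and the median of all tested genes was 0.65.

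Markers of other cells were present and differed between the libraries, where 7.38% of all tested genes passed 2-fold toward PDR and 6.91% toward SKYD. Of 9 B cell markers, 7 were tested and 6 passed 2-fold toward PDR, and they summed to 1.08% of fragments in PDR and 0.610% in SKYD, with Ighm highest in mean FPKM. Ighm made up 163396 of the 249998 B cell fragments in PDR and 137506 of 155124 in SKYD. At 0.34 it was the tested marker that did not pass. All 12 T lineage markers were more than 2-fold higher in SKYD, at 0.0474% and 0.342%, with Cd8b1 highest in mean FPKM, and Rag1, Rag2 and Ptcra had 0 fragments in PDR. Lymphocyte genes thus differed in opposite directions.

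Of 12 neutrophil markers, 4 passed 2-fold toward PDR, with 0.342% of fragments in PDR and 0.252% in SKYD, and S100a9 was highest in mean FPKM. Of those tested, 2 were higher in SKYD as deposited, Retnlg at -0.32 and Mmp8 at -0.56, chosen after their values were seen, and both turned above 0 with centring on the macrophage markers. With that centring 10 passed 2-fold toward PDR, where 24.6% of all tested genes did. With protein-coding genes rescaled 6 passed it, where 11.7% of all tested genes did. Of 5 NK cell markers, 3 passed it toward PDR, with 0.0304% and 0.0130%, and Gzma was highest in mean FPKM. All 8 hepatocyte markers passed it toward PDR, with 0.219% and 0.0627%, and Apoa2 was highest in mean FPKM. These 3 lists thus held genes more abundant in PDR. Among 6 dendritic cell markers 1, Siglech, named after its value was seen, was more than 2-fold higher in SKYD. They took 0.0143% and 0.0132%, and Ccr7, highest in mean FPKM, had a log2 difference of 0.89.

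The erythroid markers, of which 7 of 8 were in the table, took 1.71% of fragments in PDR and 2.21% in SKYD, with Hba-a1 highest in mean FPKM. As deposited 0 passed 2-fold. With centring on the macrophage markers 2 passed toward PDR, where 24.6% of all tested genes did. Of 6 platelet markers 1 was more than 2-fold higher in SKYD, the gene highest in mean FPKM, Pf4, with 0.0201% and 0.105%, and Gp1bb had 0 fragments in both. Pf4 made up 3690 of the 4635 platelet fragments in PDR and 26049 of 26750 in SKYD, and the other 3 tested platelet markers lay toward PDR. The median over all 4 was 0.27. The fibroblast markers took 0.00665% and 0.0253%, with Dcn highest in mean FPKM, and 2 of 6 passed 2-fold toward SKYD. With centring on the macrophage markers 1 did, where 3.13% of all tested genes did. Markers of 3 further kinds of cell took small shares. Smooth muscle took 0.0018% and 0.00085%, with Myl9 highest in mean FPKM, at 12.9 and 3.89 and past 2-fold toward PDR, and Myh11, Tagln and Cnn1 were at 0 in both. The other tested marker, Acta2, chosen after its value was seen, had 65 and 104 fragments and a log2 difference of -0.39, which turned to 0.26 with centring on the macrophage markers. Endothelial markers took 0.0029% and 0.0019%, with Pecam1 highest in mean FPKM. Pecam1 made up 569 of these 681 fragments in PDR and 400 of 479 in SKYD. Of the 6 endothelial markers 1, Pecam1, was tested, and 0 passed 2-fold as deposited. Eosinophils, mast cells and basophils took 0.0034% and 0.0048%, with Prg2 highest in mean FPKM, at 14.5 and 23.3, and Epx, Tpsb2 and Mcpt4 were at 0 in both. In that list, and named after their values were seen, Mcpt8 passed 2-fold toward PDR and Cpa3 toward SKYD, the latter not with centring on the macrophage markers. The part of any of these cells in the members' values was not tested.

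**Figure D4:**
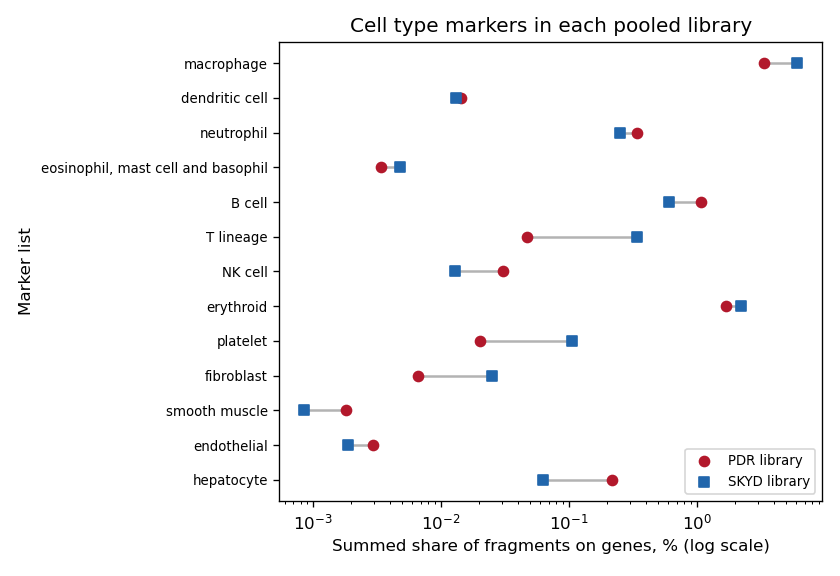
Summed share of fragments (%, log scale) on each of 13 lists of cell type markers in PDR (circles) and SKYD (squares). Macrophage markers take the largest share, 3.35% and 6.13%, most of it on Lyz2, which neutrophils also express. The T lineage and hepatocyte markers are far apart between the libraries in opposite directions.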

How the data were processed

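Macrophages sorted from the aorta gave 1 pooled RNA library for each group. Per the labels and methods, the authors aligned reads with TopHat2 2.0.9 and Bowtie2 2.0.6 and counted them with HTSeq 0.6.1, and they deposited FPKM with each gene's length and position. The submitters' notes name mm9, but 98.3% of 54409 shared genes have the start and end of GENCODE M21, an annotation of GRCm38. The strand setting is not given in the sources used here.

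FPKM times gene length gave whole fragments (within 0.05) for 100% of genes above 0. A count of 0 allows up to 3 fragments, which is 1.3e-05% in PDR and 1.18e-05% in SKYD. Genes named were all 10 members, the 3 most abundant and the furthest each way of each pathway list, the most abundant and those at 0 of each marker list, and genes overlapping a member, though some genes this rule takes are not reported here. Members and lists were chosen with earlier results of these data known. Alternatives were other pseudocounts, filters, scalings and thresholds. Steps were tested on simulated data. Calculations used scipy 1.17.1, numpy 2.4.6 and pandas 2.3.3 under Python 3.11.15, and plots used matplotlib 3.10.9.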

Additional observations from a re-analysis of the deposited data

How the results depend on the processing

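Pseudocounts of 0.1 and 0.01, no filter or one at an FPKM of 5, TPM in place of FPKM, centring on all tested genes (median or trimmed mean) or on the reference genes, protein-coding genes rescaled, a 1.5-fold threshold and leaving out Jund each gave 1 member past the threshold in SKYD and 0 in PDR. The share of all tested genes past it ran over these from 1.56% without a filter to 15.0% at 1.5-fold in SKYD, and from 1.57% to 15.1% in PDR. At a 4-fold threshold 0 passed in SKYD. Centring on the macrophage markers moved the median of all tested genes to 0.65 and gave 326 genes past 2-fold in SKYD and 2562 in PDR, against 719 and 767. It left 0 members past 2-fold in SKYD and 2 in PDR. The members' median became 0.65, and their differences -0.65 for Dusp1, 0.15 for Junb, 0.67 for Ier2, 0.65 for Fos, 0.48 for Jund, 1.01 for Nr4a1, 1.01 for Atf3, 0.75 for Jun and 0.35 for Egr1.

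Rescaling protein-coding genes to their own sum moved the median of all tested genes to 0.20, with 671 past 2-fold in SKYD and 1214 in PDR. The members' median was then 0.22, with -1.08 for Dusp1, -0.28 for Junb, 0.25 for Ier2, 0.22 for Fos, 0.049 for Jund, 0.59 for Nr4a1, 0.59 for Atf3, 0.32 for Jun and -0.11 for Egr1. Centring on the reference genes gave -1.34 for Dusp1 and -0.55 for Junb, just past their counting intervals. Which scaling suits these libraries was not tested. Depth limits Fosb, with 1 and 10 fragments, more than any other member, and without a filter it had a difference of -0.08. No paired analysis was possible because each group has 1 library.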

Other observations

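Genes of the integrated stress and unfolded protein response, some of which share induction with Atf3, were all tested, 9 of 9, and 3 passed 2-fold toward PDR and 0 toward SKYD, where 7.38% and 6.91% of all tested genes did, with a median difference of 0.30. With centring on the macrophage markers 4 passed toward PDR, where 24.6% of all tested genes did, and the median was 0.95. Xbp1, a factor of secretory cells, had an FPKM of 249.8 in PDR and 211 in SKYD, Hspa5, the chaperone BiP, had 250.1 and 179, and Herpud1 had 73.3 and 59.2. Trib3 had the difference furthest toward PDR at 1.39 (95% CI 1.14 to 1.58), and Sesn2 the one furthest toward SKYD at -0.86 (95% CI -1.06 to -0.65). AU-rich mRNA decay clears immediate early transcripts, and 16 genes were listed for it and for its regulation in either direction. Of these 10 were tested, 0 passed 2-fold toward PDR and 1, Zfp36l2, toward SKYD, at -1.30 (95% CI -1.46 to -1.13). With that centring 2 passed toward PDR and 0 toward SKYD, beside the same 24.6% and 3.13% of all tested genes. Btg1 was the most abundant, with an FPKM of 44.5 and 37.8, Elavl1 had 9.75 and 7.91, and Cnot7 had 6.61 and 5.64. Parn had the difference furthest toward PDR at 0.66 (95% CI 0.53 to 0.80).

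Among measures of RNA quality, the 37 mitochondrially encoded genes took 3.40% of fragments in PDR and 3.67% in SKYD. Malat1, a nuclear RNA, took 0.0223% and 0.0263%, and Neat1 took 0.0010% and 0.00065%. The 11 reference genes had a median difference of 0.05, from -0.75 for Actb to 0.45 for B2m, and 0 passed 2-fold. With centring on the macrophage markers their median was 0.70 and 2 passed toward PDR, where 24.6% of all tested genes did.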
